A study of Saccharomyces cerevisiae with 112 samples.

Results

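The chase libraries without glucose were 14 of the 112 samples of a series on several budding yeast strains, and 14 of the 40 samples with processed files used here. All 14 are of the strain KWY165. They were chosen by their titles, as 2 courses of 7 libraries each, taken at 0, 5, 10, 15, 20, 30 and 45 min of a pulse-chase of mRNA decay in medium without glucose. Each time point is a group of 2 libraries, 1 from each course, and by their labels they differ only in chase time and course. The 14 libraries of the same design with glucose were used for 1 comparison. A library of total RNA from outside the chase, taken after 30 min without glucose and grown without the label described below, gave a background of conversions. For the chase libraries the labels name no other genotype, allele or treatment, and separate cultures are not mentioned. The spread behind each p-value is therefore that between these libraries and may be technical. It is also possible that 1 culture gave all times of a course. How the chase was done and the spike-in added is not stated in the labels.

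SLAM-seq marks mRNA by its age. Cells take up 4-thiouracil (4TU), a base analogue that is built into RNA in place of uracil, and alkylation of the extracted RNA with iodoacetamide makes the sequencer read the labelled positions as T-to-C conversions. In an ideal chase, the labelled base is withdrawn, so that mRNA made during the pulse keeps its conversions, mRNA made later has none, and the loss of labelled copies follows decay. Here labelled reads of 309 genes rose. Their sum went from 0.944 and 0.715 per spike-in read at 0 min to 3.73 and 3.04 at 45 min in the 2 courses. A slope is therefore given as the net change of labelled reads. Slopes and halving times are rates of decay only for a gene of which no labelled mRNA was made during the chase. For which genes any was made was not tested. When glucose is withdrawn, budding yeast is known to stop most translation within minutes, to lower transcription of growth genes and to switch on genes for stress resistance, for alternative carbon sources and for glucose uptake at low concentration. Cytoplasmic mRNA decay in yeast starts with shortening of the poly(A) tail by the Ccr4-Not complex, followed by removal of the cap by Dcp1-Dcp2 and digestion from the 5′ end by Xrn1.

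The libraries were sequenced from the 3′ ends of mRNAs and held 3088172 to 8961866 yeast reads and 48560 to 213959 spike-in reads. A labelled read is a read with T-to-C conversions as counted in the deposited tables, and its level is given per spike-in read, so that a fall of all mRNA at once remains visible. Fewer cells and less RNA per cell cannot be told apart in such a bulk level. Over all yeast genes, course 1 held 57.0 labelled reads per spike-in read at 0 min, 45.3 at 5 min, 41.9 at 10 min, 38.2 at 15 min, 36.9 at 20 min, 23.5 at 30 min and 16.2 at 45 min. Course 2 held 49.99, 39.7, 32.8, 34.5, 34.6, 26.5 and 14.6 at the same times. Both libraries at 45 min lay below all others of their course, at 28.5% and 29.2% of the level at 0 min. The fall was not even. Labelled reads dropped to 79.5% of the start in both courses by 5 min, stood at 67.0% and 69.0% at 15 min and at 64.7% and 69.2% at 20 min, and then fell again. Unlabelled reads per spike-in read dropped with them over the first 5 min, to 77.4% and 80.7%, and ended at 88.9% and 76.1%, so that the labelled share of yeast reads went from 62.6% to 34.9% in course 1 and from 62.3% to 38.9% in course 2. The 5 min drop is shared by labelled and unlabelled reads, and its part in the early slopes below was not tested. Among the spike-in reads, 0.346% to 0.472% carried conversions. In the library of total RNA grown without 4TU, taken after 30 min without glucose, 0.0502% of yeast reads did.

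**Figure D1:**
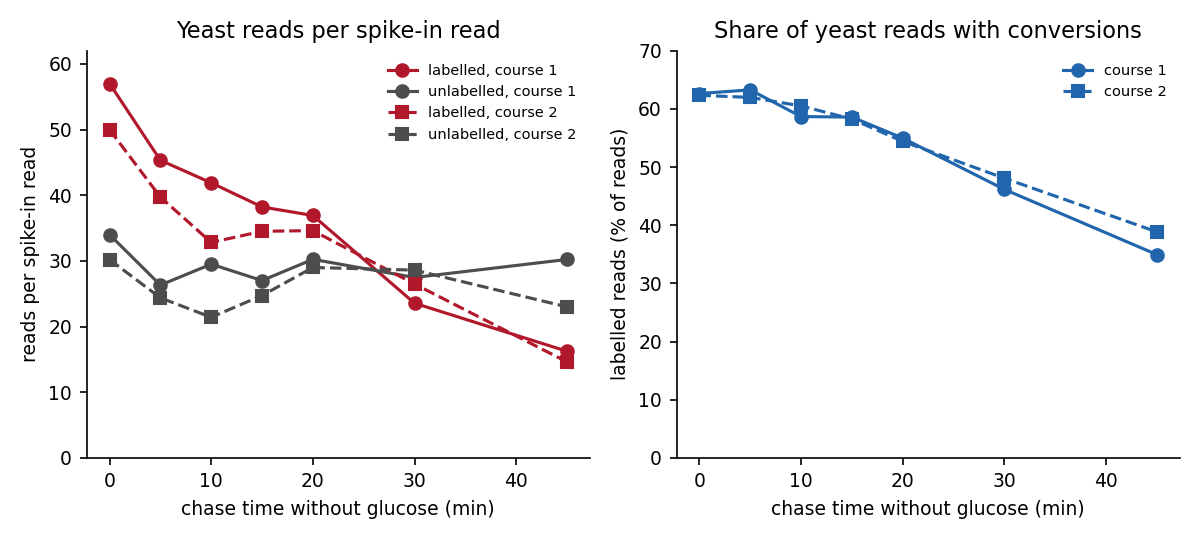
Yeast reads per spike-in read (left) and percent of yeast reads with T-to-C conversions (right) against chase time in min, 1 point per library, with circles for course 1 and squares for course 2. Labelled reads fell to 28.5% and 29.2% of their level at 0 min, level between 10 and 20 min in course 2 and falling slowly there in course 1, while unlabelled reads stayed between 70.9% and 96.0% of theirs after 0 min.

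Which mRNAs lost, kept or gained labelled copies was asked gene by gene, over 5408 of 5560 yeast features with a mean of at least 10 labelled reads per library. That mean is over all 14 libraries, so a gene near 0 at the start could enter through later libraries in which it was high. Of 55 tested genes with a mean under 10 at 0 min, 25 rose and 3 fell by the test below. The rise of such genes, among them RGI2, POT1 and YNL194C, was in part what let them be tested. The slope is the fitted log2 change of labelled reads per spike-in read in 10 min of chase, tested by quasi-likelihood in edgeR, with p-values adjusted over all genes tested after Benjamini-Hochberg and a threshold of 0.05. By this test 4366 genes fell over 0 to 45 min, which is 80.7% of the genes tested, 309 rose (5.71%) and 733 passed in neither direction. The median slope was -0.41 over all genes tested, -0.47 over the genes that fell and 0.41 over those that rose. The time in which the fitted level of the genes that fell was halved had a median of 21.1 min, with a 5th percentile of 11.9 and a 95th percentile of 53.1 min. Their median level at 45 min, read from the fitted line, was 22.8% of that at 0 min. Of the genes that fell, 4365 had a slope below 0 in each course fitted alone, and all 309 that rose had a slope above 0 in both. The courses are parts of the same 14 libraries that gave the calls, so this agreement is not a separate test. A gene was called kept where the 95% interval of its fitted change from 0 to 45 min lay within 1 log2 unit of no change, which 323 genes met (5.97%), 302 of them among those past the threshold in neither direction, 18 that fell and 3 that rose by little. The 431 others were neither kept nor past the threshold. Relative to all yeast reads in place of the spike-in, the median slope was -0.21, 3429 genes fell, 719 rose and 1049 were kept, so a rise given here is a rise against the spike-in. Over 0 to 30 min alone, 592 genes rose.

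The mRNAs of the translation machinery lost their labelled copies as whole groups, mostly from the first 15 min on. All 137 cytosolic ribosomal protein genes fell, with a median slope of -0.70 and a median halving time of 14.2 min, all 92 ribosome biogenesis genes fell, with a median slope of -0.82 and a halving time of 12.2 min, and all 39 translation factor genes tested fell, with a median slope of -0.67. The medians over all genes tested were -0.41 and, for the halving time of the genes that fell, 21.1 min. Summed over the list, labelled reads of the ribosomal proteins stood at 53.5% and 52.1% of the level at 0 min after 15 min and at 13.1% and 14.3% after 45 min, and those of ribosome biogenesis at 47.3% and 48.5% and then at 7.32% and 8.27%. RPS18A, which encodes a protein of the small subunit, went through 92.5, 61.7, 43.2, 36.2, 29.7, 11.8 and 5.43 labelled reads per 1000 spike-in reads from 0 to 45 min in course 1 and through 90.5, 54.9, 36.4, 33.4, 21.9, 14.5 and 5.62 in course 2. Each step of both courses was downward, and its slope was -0.88 ± 0.04 (SE, adjusted p = 1.1e-14). For NOP1, the fibrillarin that methylates pre-rRNA, the values were 64.1, 39.5, 30.9, 22.2, 16.2, 6.16 and 2.13 in course 1 and 53.1, 41.4, 26.9, 20.3, 14.8, 6.68 and 2.91 in course 2, with a slope of -1.02 ± 0.04 (SE, adjusted p = 5.5e-15). EFB1, which encodes the nucleotide exchange factor of elongation factor 1, stood at 208, 125, 111, 81.7, 65.3, 24.1 and 10.4 in course 1 and 228, 144, 89.3, 79.6, 68.2, 28.2 and 10.9 in course 2. Its slope was -0.95 ± 0.04, and in all 3 genes both libraries at 45 min lay below every library of 0 to 30 min. SNU13, a protein of the box C/D snoRNPs, had a slope of -1.03 ± 0.05, RPS9A one of -0.97 ± 0.05 and TEF4, another subunit of the elongation factor complex, one of -0.79 ± 0.04.

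Most ribosomal protein genes of yeast exist as 2 near-identical copies, and reads that fall in stretches shared by both may be split between them, so differences within a pair are uncertain. Of 59 pairs taken by symbol, as A and B forms, 49 had slopes within 0.2 of each other, and the median difference was 0.10 log2 units per 10 min. How alike the members of each pair are was not checked. RPS22A at -0.92 ± 0.05 and RPS22B at -0.36 ± 0.05 differed most, followed by RPP1A at -0.30 ± 0.04 and RPP1B at -0.72 ± 0.04, acidic proteins of the ribosomal stalk. These pairs were chosen for their difference, which was not tested. RPS28B was the ribosomal protein gene with the steepest loss. It went through 44.2, 21.9, 9.57, 7.44, 5.72, 2.80 and 1.76 labelled reads per 1000 spike-in reads in course 1 and 39.1, 15.7, 8.59, 6.69, 4.67, 3.07 and 1.36 in course 2, and thus lost most of its labelled copies within 10 min. Its copy RPS28A went through 152, 117, 98.5, 83.2, 65.97, 31.4 and 15.7 in course 1 and 144, 92.8, 66.3, 69.5, 46.1, 38.1 and 16.3 in course 2. The early slope, over 0 to 15 min, was -1.72 ± 0.12 (SE) in RPS28B and -0.63 ± 0.12 in RPS28A, and the late slope, over 15 to 45 min, was -0.67 ± 0.07 and -0.72 ± 0.07. RPS28B lies on chromosome XII at 673085 to 674577 in the coordinates of the deposited tables, on the plus strand, and its window of 1493 bases compares with a median of 613 over all genes. Its mRNA is known for a long 3′ UTR through which the Rps28 protein and the decapping activator Edc3 speed its decay.

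**Figure D2:**
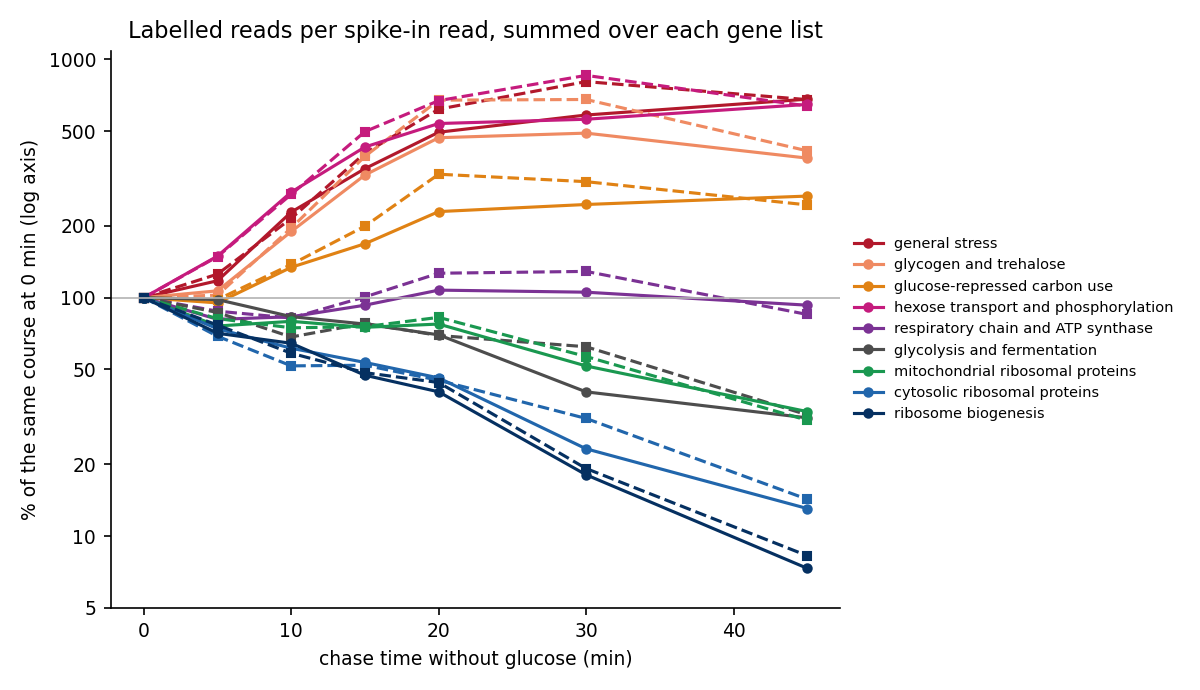
Labelled reads per spike-in read summed over the tested members of 9 gene lists, as percent of the same course at 0 min on a log axis, against chase time in min, with circles and solid lines for course 1 and squares and dashed lines for course 2. Ribosome biogenesis ended at 7.32% and 8.27%, ribosomal proteins at 13.1% and 14.3%, the respiratory chain at 93.0% and 85.0%, and general stress genes at 680.0% and 677%.

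The steepest falls of single genes were those of AQR1, a plasma membrane transporter, CLB6, an S phase cyclin, JJJ3, a J-domain protein, PCL1, a G1 cyclin of the Pho85 kinase, and YGR079W. AQR1 went through 4.04, 1.90, 1.44, 0.917, 0.7005, 0.157 and 0.0688 labelled reads per 1000 spike-in reads in course 1 and 3.37, 2.45, 1.41, 0.931, 0.515, 0.277 and 0.0795 in course 2, which left 1.70% and 2.36% of the start. These low levels rest on few reads, from 213 and 327 labelled reads at 0 min to 7 and 17 at 45 min. Its slope was -1.27 ± 0.06 (SE, adjusted p = 7.4e-15) and its halving time 7.87 min, the shortest of the genes that fell. CLB6 had a slope of -1.25 ± 0.09, JJJ3 of -1.21 ± 0.09, PCL1 of -1.18 ± 0.10 and YGR079W of -1.16 ± 0.07. All 41 cell cycle genes were tested and 40 fell, with a median of -0.66. RNR1, the large subunit of ribonucleotide reductase, went through 19.5, 15.8, 9.69, 7.88, 5.33, 2.12 and 0.845 in course 1 and 15.2, 12.3, 8.12, 5.75, 4.86, 2.65 and 0.991 in course 2, with a slope of -0.96 ± 0.05.

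Most biosynthetic genes fell, as did 80.7% of all genes tested. Of 70 amino acid biosynthesis genes tested 66 fell, with a median slope of -0.58, and of 32 nucleotide synthesis genes 31 fell and 1, URA10, rose, with a median of -0.62. All 26 ergosterol synthesis genes and all 17 genes of the vacuolar proton pump fell, both with a median of -0.52, beside -0.41 over all genes tested. None of these medians was tested against another. ILV5, an enzyme of branched-chain amino acid synthesis, went through 113, 54.3, 46.2, 31.3, 22.5, 9.46 and 3.61 labelled reads per 1000 spike-in reads in course 1 and 94.5, 67.97, 32.8, 25.2, 19.9, 9.60 and 4.02 in course 2. Every later library lay below the earlier ones of its course, and the slope was -1.04 ± 0.05 (SE, adjusted p = 5.5e-15). HIS1, which starts histidine synthesis, had a slope of -1.02 ± 0.04, ADE4, which starts purine synthesis, of -0.97 ± 0.05, and ERG11, the lanosterol demethylase, of -0.77 ± 0.05. Cell wall genes gave 28 that fell of 32 and 1 that rose, PIR3, with a median of -0.46, and UTR2, a cell wall glycosidase, fell at -1.01 ± 0.05. UTR2 shares 503 bases of its window with CYC7 on the other strand, which rose, and the counting is not stated to use strand.

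Genes of glycolysis, protein turnover and mitochondrial ribosomes had median slopes near the -0.41 of all genes tested, of which 80.7% fell and 5.71% rose. Of 22 glycolysis and fermentation genes 17 fell and 3 rose, with a median slope of -0.37, and 13 fell and 4 rose relative to all yeast reads. TDH3, the main glyceraldehyde-3-phosphate dehydrogenase, stood at 878, 832, 743, 649, 559, 289 and 229.6 labelled reads per 1000 spike-in reads in course 1 and 688, 613, 441, 486, 416, 397 and 213 in course 2. Its slope was -0.41 ± 0.05 (SE), and the largest step in course 1 lay between 20 and 30 min. PDC1, the main pyruvate decarboxylase, had a slope of -0.48 ± 0.04 and ENO2, an enolase, one of -0.52 ± 0.05. The isoenzyme TDH1 went the other way, with a slope of 0.93 ± 0.09 (adjusted p = 5.1e-08), as did ENO1 and PYK2. CCW12, a cell wall mannoprotein with the most labelled reads at 0 min, fell at -0.31 ± 0.04, and TEF2, an elongation factor 1 gene, at -0.39 ± 0.04. Of 67 genes listed as mitochondrial ribosomal proteins 64 fell and 1 rose, with a median of -0.37 and a median halving time of 26.9 min, beside 14.2 min for the cytosolic ones. The gene that rose was MRP8, whose place among ribosomal proteins was not checked. Of 33 proteasome genes 32 fell, with a median of -0.32, and all 10 histone genes fell, with a median of -0.39.

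Of 48 genes that act in mRNA decay itself 42 fell, a share near the 80.7% of all genes tested, and 2, DCS1 and DCS2, rose, and their median slope was -0.47, beside -0.41 over all genes. LSM3, a subunit of the Lsm ring that binds the 3′ ends of decaying mRNA, fell at -0.62 ± 0.04, NOT3 of the Ccr4-Not complex at -0.67 ± 0.05, XRN1 at -0.47 ± 0.05 and DCP2, the decapping enzyme, at -0.40 ± 0.05. DCS2, a stress-induced relative of the scavenger decapping enzyme, rose at 0.91 ± 0.13 (adjusted p = 2.0e-05). DHH1, a helicase that activates decapping, had an early slope of 0.55 ± 0.14 and a late slope of -0.30 ± 0.08, both past the threshold, and was among the kept genes over the whole course. Of 15 mRNAs often used as reporters in decay studies 11 fell and 1 rose, also near the share over all genes. MFA2, an a-factor gene that is the textbook unstable mRNA, went through 65.1, 52.5, 35.02, 34.6, 30.9, 13.6 and 5.80 labelled reads per 1000 spike-in reads in course 1 and 47.6, 35.2, 30.6, 31.6, 44.7, 16.7 and 5.87 in course 2. Its slope was -0.69 ± 0.08, with the library at 20 min of course 2 standing above its neighbours. PGK1, the textbook stable mRNA, went through 136, 137, 87.7, 102, 104, 77.4 and 71.9 in course 1 and 91.8, 78.02, 73.8, 91.7, 99.3, 96.2 and 39.998 in course 2. It fell at -0.19 ± 0.06 (SE, adjusted p = 0.0036) against the spike-in, while its slope relative to all yeast reads was 0.0019. ACT1, the actin gene, fell at -0.28 ± 0.04, STE2, the alpha-factor receptor, at -0.85 ± 0.05 and HO, the mating type endonuclease, at -0.87 ± 0.05. GAL1, GAL10 and STE3 had at most 0.440 labelled reads per 1000 spike-in reads in every library and passed in neither direction.

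Labelled copies were kept most often, among the lists, by nuclear-encoded subunits of respiratory complexes and ATP synthase. Of these 42 genes 19 met the rule for kept, beside 5.97% of all genes tested, and 14 fell and 12 rose, with a median slope of 0.02. Relative to all yeast reads 1 fell and 28 rose, so their direction depends on the scaling. COR1, a core subunit of the cytochrome bc1 complex, stood at 25.8, 16.9, 19.6, 21.95, 25.7, 24.6 and 19.8 labelled reads per 1000 spike-in reads in course 1 and at 20.5, 17.5, 17.7, 21.1, 26.4, 24.95 and 17.01 in course 2. The libraries at 45 min lay within the range of the earlier ones in course 1 and just below it in course 2, and the 95% interval of its change over 45 min was -0.41 to 0.47 on the log2 scale. POR1, the mitochondrial porin, stood at 50.3, 41.1, 46.5, 47.1, 52.8, 47.9 and 45.4 in course 1 and 41.5, 38.9, 34.2, 40.2, 41.2, 52.4 and 40.02 in course 2, with an interval of -0.27 to 0.46. ATP7, a stalk subunit of ATP synthase, and AFG1, a mitochondrial ATPase, had slopes of -0.01 ± 0.05 and -0.00 ± 0.05, and MRA1 one of -0.01 ± 0.05. The 12 genes that fell without being kept were NDE1, an external NADH dehydrogenase, and subunits of ATP synthase, such as ATP20 at -0.27 ± 0.04, while the genes that rose included SDH1 of succinate dehydrogenase at 0.30 ± 0.10 and NDI1, the internal NADH dehydrogenase, at 0.52 ± 0.14. Among isoforms of a subunit, whose differences were not tested, COX5A, the subunit of cytochrome oxidase made with oxygen, had a slope of -0.06 ± 0.06 and was kept, and its hypoxic form COX5B rose at 0.35 ± 0.10 (adjusted p = 0.005). CYC7, the hypoxic form of cytochrome c, went through 2.12, 5.07, 16.3, 32.98, 49.6, 67.5 and 77.5 in course 1 and 1.36, 3.11, 12.4, 29.9, 46.9, 84.8 and 62.01 in course 2, and rose at 1.19 ± 0.25 (adjusted p = 5.5e-04). Of 17 TCA cycle genes 7 fell and 4 rose, with a median of -0.04, and 6 fell and 10 rose relative to all yeast reads. The 4 that rose were CIT1, CIT3, MDH1 and KGD2. CIT1, the mitochondrial citrate synthase, rose at 0.40 ± 0.09.

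Genes of the general stress response gained labelled copies nearly as a group. Of 47 tested 43 rose and 1, GPP2, fell, beside 5.71% and 80.7% of all genes tested, and their median slope was 0.66. Their summed labelled reads per spike-in read stood at 348% and 404% of the level at 0 min after 15 min and at 680.0% and 677% after 45 min. HSP12, a small membrane-associated heat shock protein, went through 3.68, 3.91, 8.16, 20.1, 41.9, 79.1 and 124 labelled reads per 1000 spike-in reads in course 1 and 2.68, 2.43, 5.13, 17.6, 36.1, 84.3 and 90.8 in course 2. It climbed at every step after 5 min, with a slope of 1.34 ± 0.16 (SE, adjusted p = 2.5e-06). RGI2, a protein of energy metabolism under respiration, had the highest slope of all genes tested, 1.68 ± 0.15, from 0.0948 and 0.0412 labelled reads per 1000 spike-in reads at 0 min to 12.3 and 8.91 at 45 min. Those starting levels were 5 and 4 reads. TMA10, a protein bound to ribosomes, went through 0.910, 5.86, 26.7, 48.4, 72.4, 104 and 154 in course 1 and 0.690, 4.23, 21.3, 50.4, 91.04, 113 and 128 in course 2, and CTT1, the cytosolic catalase, rose at 1.03 ± 0.33. Of 22 glycogen and trehalose genes 13 rose and 1, PGM1, fell, with a median of 0.51, among them GPH1, the glycogen phosphorylase, at 1.28 ± 0.32 and TPS1, the trehalose phosphate synthase, at 0.48 ± 0.13.

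Most genes that glucose represses rose as well. Of 35 genes for the use of other carbon sources 21 rose and 4 fell, with a median slope of 0.26, and relative to all yeast reads 29 rose. The 4 that fell were ATO3, PEX11, ICL2 and YAT2, the last of which also met the rule for kept, and relative to all yeast reads none of the list fell. POT1, the thiolase of fatty acid oxidation in peroxisomes, went through 0.0569, 0.0766, 0.221, 0.386, 1.06, 3.04 and 7.66 labelled reads per 1000 spike-in reads in course 1 and 0.0721, 0.0635, 0.127, 0.471, 1.34, 3.92 and 4.67 in course 2. Its first values rest on 3 and 7 labelled reads, and its slope was 1.54 ± 0.13 (SE, adjusted p = 3.3e-08). ADY2, an acetate transporter, rose at 1.11 ± 0.08, JEN1, the lactate transporter, at 1.02 ± 0.13, and CAT8, an activator of gluconeogenic genes, at 0.99 ± 0.17. SUC2, the invertase, rose at 0.23 ± 0.06. Of 20 genes of hexose transport, sensing and phosphorylation 7 rose and 7 fell, with a median of -0.05 that turned to 0.13 relative to all yeast reads. Those that rose included HXK1, the hexokinase that glucose represses, with 1.67, 3.97, 17.4, 35.99, 63.3, 89.6 and 121 in course 1 and 0.937, 2.36, 15.1, 37.2, 67.9, 96.6 and 76.1 in course 2. Its rise was steady to 30 min in both courses and went on to 45 min in course 1 only, and its slope was 1.35 ± 0.30. GLK1, the glucokinase, rose at 0.99 ± 0.20. The high-affinity transporters HXT6 and HXT7 rose at 1.28 ± 0.36 and 1.02 ± 0.20, with 0.080% and 0.15% multimapped reads, although genes so alike in sequence may still share some. Those that fell included HXT1, the low-affinity transporter used at high glucose, at -0.57 ± 0.07, STD1, a regulator of hexose transporter genes, at -0.74 ± 0.07, and MIG2, a glucose repressor, at -0.72 ± 0.17. Of 32 heat shock chaperone genes 14 fell and 9 rose, and 8 fell and 13 rose relative to all yeast reads. The 2 forms of ribosome-bound Hsp70, SSB1 and SSB2, fell at -0.68 ± 0.05 and -0.76 ± 0.06, while HSP104, the disaggregase, rose at 0.69 ± 0.17 and SSA4, a stress-induced Hsp70, at 0.55 ± 0.08.

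**Figure D3:**
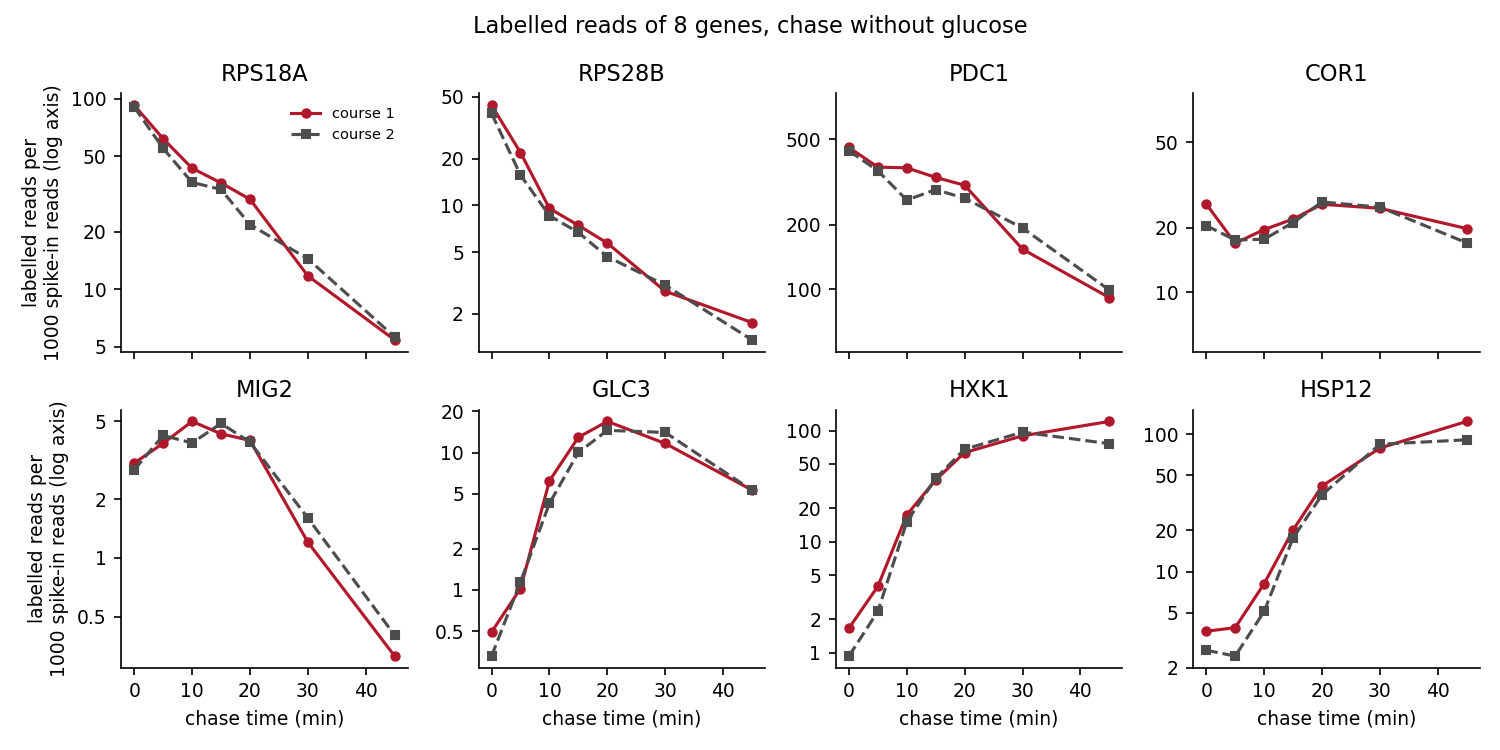
Labelled reads per 1000 spike-in reads of 8 genes on log axes that differ between panels, against chase time in min, 1 point per library, with circles for course 1 and squares for course 2. RPS18A and RPS28B fell, PDC1 fell mostly after 20 min, COR1 stayed between 16.9 and 26.4, MIG2 and GLC3 rose and then fell, and HXK1 and HSP12 rose from at most 1.67 and 3.68 at 0 min to at least 76.1 and 90.8 at 45 min.

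The second question was whether loss differed between the first 15 min and the next 30 min. In a fit of 2 joined lines that meet at 15 min, 2127 genes fell early (39.3%) and 658 rose early (12.2%), and 4660 fell late (86.2%) and 100 rose late (1.85%). The median slope over all genes tested was -0.24 early and -0.49 late, with -0.25 and -0.21 early and -0.50 and -0.48 late in the separate courses. Tested gene by gene, the early slope was above the late one in 1051 genes (19.4%) and below it in 17 (0.314%), so where the 2 differed it was nearly always that loss was slower early or that labelled copies first rose. These 1051 genes comprised 261 that rose and then fell, 229 that rose and then passed in neither direction, 57 that rose in both spans, 398 that fell only late by the test and 106 that fell in both. Relative to all yeast reads the median slopes were -0.02 early and -0.30 late, 1027 genes fell and 1170 rose early, and 1951 genes had the early slope above the late one. On other scales of all yeast reads 327 to 437 genes rose late. With the lines joined at 10 min in place of 15, 882 genes fell and 425 rose early, 165 rose late, 288 had the early slope above and 9 below. Joined at 20 min, 46 rose late and 1959 had it above. With means per time in place of lines, 395 had it above and 9 below. Without the library at 20 min of course 1 the 1051 genes became 657, and without that at 0 min of course 1 the 17 became 11.

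Early rises were large in some genes. The fitted rise over 0 to 15 min reached 2-fold in 441 genes, 4-fold in 160, 8-fold in 67 and 16-fold in 30. From the measured means at 15 and 0 min the counts were 318, 106, 44 and 20. The mean over both libraries was highest at 20 min in 365 of the 658 genes that rose early, at 30 min in 175, at 45 min in 57, at 15 min in 48 and at 10 min in 13. Of the 658 genes, 507 were in none of the 22 lists. Among the lists, early rises were most frequent in a few, beside 12.2% of all genes tested, with 43 of 47 general stress genes, 19 of 22 glycogen and trehalose genes, 24 of 35 glucose-repressed genes, 13 of 20 hexose genes and 16 of 32 chaperone genes rising early, while 127 of the 137 ribosomal protein genes and 86 of the 92 ribosome biogenesis genes fell early, beside 39.3% of all genes tested. Relative to all yeast reads 113 and 54 of them did, and of 39 translation factor genes 17 in place of 32. YNL194C, a membrane protein of the Sur7 family, had the steepest early slope, 5.43 ± 0.40 (SE, adjusted p = 3.5e-08). It went through 0.0569, 0.0766, 0.824, 4.10, 7.85, 10.6 and 9.63 labelled reads per 1000 spike-in reads in course 1 and 0.0618, 0.0381, 0.805, 3.52, 7.06, 12.2 and 9.25 in course 2, from 3 and 6 reads at the start. HXT6, TMA10, RGI1 and GLC3 followed, with early slopes of 4.16 ± 0.22, 4.01 ± 0.22, 3.82 ± 0.21 and 3.64 ± 0.20.

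Of the 261 genes that rose and then fell, GLC3, the glycogen branching enzyme, went through 0.493, 1.02, 6.21, 12.9, 16.8, 11.6 and 5.33 labelled reads per 1000 spike-in reads in course 1 and 0.330, 1.14, 4.26, 10.01, 14.5, 14.01 and 5.31 in course 2. Both courses peaked at 20 min, and the late slope was -0.45 ± 0.09 (SE, adjusted p = 8.6e-05). FMP48, a putative protein kinase, went through 0.209, 1.65, 5.56, 8.56, 10.2, 4.88 and 1.32 in course 1 and 0.319, 1.51, 4.61, 8.27, 8.48, 6.06 and 1.77 in course 2, with slopes of 3.22 ± 0.23 early and -0.95 ± 0.11 late. Its labelled reads at 45 min remained above those at 0 min in both courses. YKR075C had the same course in outline, with slopes of 2.97 ± 0.39 early and -0.93 ± 0.20 late. MIG2 showed a smaller early rise and one of the steepest late falls. It went through 3.05, 3.86, 4.99, 4.32, 3.99, 1.20 and 0.315 in course 1 and 2.82, 4.23, 3.87, 4.87, 3.91, 1.60 and 0.402 in course 2, with slopes of 0.51 ± 0.13 early and -1.27 ± 0.08 late. Other genes of this class were MTH1, a regulator of glucose sensing, at 2.21 ± 0.17 and -0.65 ± 0.08, HXT4, a hexose transporter, at 1.48 ± 0.14 and -0.61 ± 0.08, GPD1, of glycerol synthesis, at 2.12 ± 0.21 and -0.39 ± 0.11, MDH2, the cytosolic malate dehydrogenase, at 1.45 ± 0.30 and -0.47 ± 0.17, BTN2, a protein that sorts misfolded proteins, at 2.64 ± 0.30 and -0.47 ± 0.14, and EDC2, an activator of decapping, at 1.32 ± 0.17 and -0.34 ± 0.09. By list, this class held 7 of 32 chaperone genes, 6 of 20 hexose genes, 3 of 22 glycogen and trehalose genes and 1 of 47 general stress genes, beside 4.83% of all genes tested.

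The 100 genes that rose late held 24 of the 47 general stress genes and 14 of the 35 glucose-repressed genes, beside 1.85% of all genes tested, and the 100 itself moved between 46 and 437 with the breakpoint and the scaling. RGI2, POT1, HSP12, ADY2 and SPG4, a protein of stationary phase survival, had the highest late slopes, from 1.26 ± 0.13 in RGI2 to 0.91 ± 0.14 in SPG4. At the other end stood CIC1 and FYV7, both of ribosome biogenesis, MIG2, AQR1, and MNN1, a mannosyltransferase of the Golgi. CIC1 went through 8.25, 6.35, 6.77, 5.01, 3.73, 1.07 and 0.197 labelled reads per 1000 spike-in reads in course 1 and 6.53, 6.62, 4.55, 3.32, 2.49, 1.01 and 0.388 in course 2. On the log scale its fitted loss was slower early, at -0.51 ± 0.14, than late, at -1.31 ± 0.09 (SE).

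**Figure D4:**
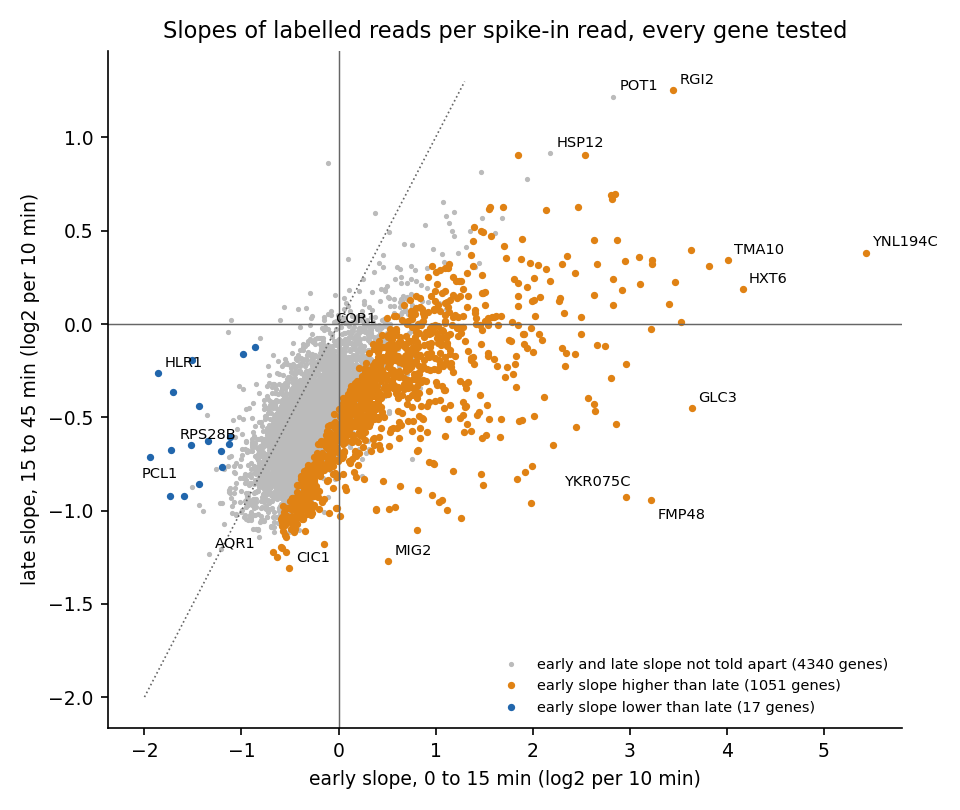
Early slope against late slope of labelled reads per spike-in read for the 5408 genes tested, both in log2 units per 10 min, 1 point per gene, with the dotted line where they are equal. Genes whose early slope was above the late one (1051, orange) lie to the right of the line and those with it below (17, blue) to the left.

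The 17 genes with faster early loss were HLR1, BUB1, SSP2, PCL1, RPS28B, AIR1, YHP1, CHA1, CLB6, MCD4, SRO9, YGR079W, CGR1, AAT1, DSE4, SUI1 and NOG2. They are 0.314% of the genes tested, and the count was 9 with the lines joined at 10 min. PCL1 and CLB6 are cyclins, and BUB1 is a kinase of the spindle checkpoint. PCL1 went through 3.38, 1.46, 0.707, 0.568, 0.277, 0.148 and 0.0786 labelled reads per 1000 spike-in reads in course 1 and 2.93, 1.28, 0.559, 0.439, 0.185, 0.157 and 0.112 in course 2. Its early slope was -1.94 ± 0.16 and its late slope -0.71 ± 0.11 (difference -1.23 ± 0.25, SE, adjusted p = 2.8e-04). HLR1 went through 2.92, 0.664, 0.501, 0.364, 0.326, 0.201 and 0.265 in course 1 and 2.44, 0.991, 0.517, 0.408, 0.412, 0.187 and 0.150 in course 2, and its early slope was -1.86 ± 0.18 beside -0.26 ± 0.11 late. Its window shares 462 bases with that of QCR7 on the other strand, which had a mean of 2729.5 labelled reads per library against 60.9 in HLR1, and the window of YHP1 shares 413 bases with that of RPS18A. How much such neighbours add to these counts was not tested. CHA1, the deaminase that breaks down serine and threonine, had an early slope of -0.99 ± 0.21 and a late slope of -0.16 ± 0.12 that did not pass the threshold.

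Unlabelled reads, which the choice of genes did not use, are the reads without counted conversions. They may include reads from labelled molecules and share the spike-in scale of labelled reads, so the 2 are not independent. Per spike-in read, unlabelled reads fell over 45 min in 1969 genes (36.4%) and rose in 1740 (32.2%), with a median slope of -0.01, and relative to all yeast reads in 1236 and 3124. All 309 genes whose labelled reads rose also had rising unlabelled reads. Of the genes whose labelled reads fell, unlabelled reads fell in 1969, rose in 771 and passed in neither direction in 1626, and of the 733 whose labelled reads did neither, unlabelled reads rose in 660. Among ribosomal protein genes unlabelled reads fell in 136 of 137 and in 91 of 92 genes of ribosome biogenesis, with medians of -0.54 and -0.82, so that labelled and unlabelled reads of these genes fell together. In contrast, unlabelled reads rose in all 42 respiratory chain and ATP synthase genes, with a median of 0.49, and in all 47 general stress genes, with a median of 1.08. The proteasome stood between, with 4 that fell, 6 that rose and a median of 0.03. Summed over the 309 genes that rose, labelled reads per spike-in read went from 0.944 and 0.715 at 0 min to 3.73 and 3.04 at 45 min, and unlabelled reads from 0.620 and 0.467 to 9.04 and 6.69. Their labelled share therefore fell, from 60.4% and 60.5% to 29.2% and 31.3%, while their part of all labelled reads rose from 1.66% and 1.43% to 23.005% and 20.8%. HSP12 had 43.3% and 48.96% labelled reads at 0 min and 23.1% and 24.1% at 45 min. In the window length and number of T positions the genes that rose and those that fell were close, with medians of 619 and 611 bases and of 198 and 191 T.

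**Figure D5:**
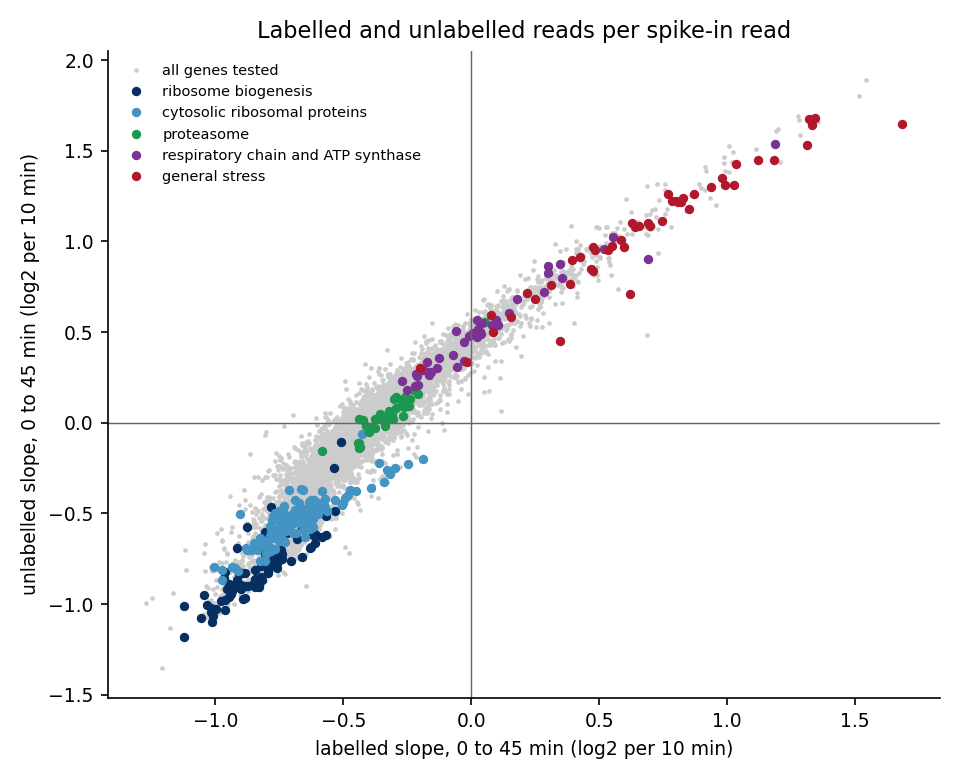
Slope of labelled against slope of unlabelled reads per spike-in read over 0 to 45 min, in log2 units per 10 min, 1 point per gene tested, with 5 gene lists in colour. Ribosome biogenesis and ribosomal protein genes lie low on both axes, general stress genes high on both, and the respiratory chain near 0 for labelled and above 0 for unlabelled reads.

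To show where the loss without glucose differed from that with glucose, slopes were compared in 1 fit of 28 libraries. The slope without glucose was below that with glucose in 444 genes (8.21%) and above it in 2369 (43.8%), and relative to all yeast reads in 175 and 4385. Ribosomal protein genes made up 132 of the 444, and in these 137 genes the median slope was -0.70 without and -0.19 with glucose, a difference past the threshold in 132. RPS28A, for example, had a slope of -0.16 ± 0.05 with glucose and differed by -0.53 ± 0.07 (SE, adjusted p = 5.2e-09). In ribosome biogenesis 37 of 92 genes had the lower slope without glucose, but relative to all yeast reads 5 did and 24 had the higher one, so their direction depends on the scaling, while 121 of the 137 ribosomal protein genes had the lower slope on that scale too. Of the 309 genes that rose without glucose 308 had a higher slope than with glucose, where their median slope was -0.49. Among the respiratory chain genes all 42 had a higher slope without glucose, with a median of -0.49 with glucose. Labelled reads per spike-in read of all genes together ended at 39.3% and 22.1% of the level at 0 min in the courses with glucose. These lay on either side of the 28.5% and 29.2% without. The courses with glucose differed on the spike-in scale. They held 43.98 and 64.6 labelled reads per spike-in read at 0 min, and all yeast reads per spike-in read ended at 127% and 73.7% of the start. What this difference adds to the slopes with glucose was not tested.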

How the data were processed

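RNA of 4TU-labelled cells was alkylated and sequenced with a 3′ end kit (QuantSeq), per the labels' protocols. The deposited tables give, per 3′ end window, whole-number counts of reads and of reads with T-to-C conversions, which per the file headers are not normalized and come from slamdunk 0.4.3. The submitters' processing notes also list cutadapt, Bowtie, TopHat2 and featureCounts, with neither role nor version. Genome build, aligner settings, strand use in counting and how many conversions mark a read as labelled were not given. Coordinates are those of the deposited tables. Of the 5560 features, 5558 matched a locus tag of a RefSeq gene table, which gave the symbols. The 152 features with lower counts than the minimum below were not tested, 6 of them without any labelled read. Spike-in reads are the reads of 9 features that are not yeast genes, 6 of which had reads.

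Labelled read counts were tested with edgeR 4.0.16 in R 4.3.3 (robust quasi-likelihood, spike-in reads as library size, Benjamini-Hochberg over the 5408 genes with a mean of at least 10 labelled reads), with chase time as a line, or as 2 lines joined at 15 min. Unlabelled reads are reads less labelled reads. The fit with glucose held 28 libraries. Summaries used Python 3.11.15. The 14 libraries enter as independent. Between the 2 libraries of a time the counts differed by 11.1 to 24.6 times the counting variance per gene, so none is a duplicate. Counting error of the spike-in total was 0.216% to 0.454%, which leaves out every other source of error in the scale. Shares of single spike-in features varied more across the 14 libraries, from 38.5% to 46.1% in the largest and from 13.4% to 20.8% in the second. In simulated counts for these libraries, slopes of 0.1, 0.25 and 0.5 were recovered in 10.4%, 91.0% and 100% of changed genes, and differences of early and late slope of 0.5, 1 and 2 in 22.4%, 89.6% and 98.5%, with 7 and 12 false calls over 5408 genes. The simulation left out each gene's own quasi-likelihood dispersion and any error shared by a course or the spike-in. Whether these rates hold for the real counts was not tested.

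The libraries, the 22 gene lists and the tests were chosen with earlier results of these data known. Named genes were the 5 most extreme in each direction of each test (past the threshold, same direction in each course, a mean of at least 20 labelled reads, at most 20% multimapped), in each list the 2 members of smallest p-value, the 5 most labelled at 0 min, the 5 kept genes with the narrowest interval around 0 and the reporters. Members of lists named besides, all 17 genes with faster early loss, and copies or isoforms of named genes were chosen after their values were seen. Of 122 genes followed through the alternatives, 50 have a window that overlaps another gene's, 6 of them on the same strand, so part of their reads may belong to the neighbour. The alternatives were other scalings, filters, breakpoints, spans and tools, subtraction of background, conversions in place of labelled reads, a replicate block and leaving out each library.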

Additional observations from a re-analysis of the deposited data

Results flagged for a closer look

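In 444 genes the slope of labelled reads was lower without than with glucose and in 2369 it was higher, by the test of the difference itself, which is why both counts stand out. Relative to all yeast reads they were 175 and 4385. The share of spike-in reads with conversions, in features that hold no yeast RNA, was 0.346% in the lowest and 0.4716% in the highest of the libraries without glucose, above the 0.0502% of yeast reads with conversions in the library grown without 4TU. Subtracting that spike-in share from each gene left 4371 genes that fell and 307 that rose.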

How the results depend on the processing

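Scaling, the breakpoint and the model of time each moved counts. Relative to library totals, TMM factors or DESeq2 size factors of all yeast reads, 719, 775 and 786 genes rose over 0 to 45 min and 1049, 1175 and 1179 were kept. Late rises then numbered 327, 420 and 437. With library totals 1027 genes fell early and 1170 rose, 1951 had the early slope above the late one, unlabelled reads fell in 1236 genes and rose in 3124, and the slope was lower without than with glucose in 175 genes and higher in 4385. TMM and DESeq2 size factors gave 31 and 34 genes with faster early loss. Among the 122 named genes the slopes of 2 changed sign, PGK1 to 0.0019, 0.0059 and 0.0050 and COX17 to 0.038, 0.044 and 0.044, and the list medians of TCA cycle, chaperone and hexose genes turned to 0.16, 0.10 and 0.13 with library totals. Over 0 to 30 min 592 genes rose. With the lines joined at 10 min, 882 genes fell and 425 rose early, 165 rose late, and the early slope was below the late one in 9 genes and above it in 288. Joined at 20 min, 46 rose late and 1959 had the early slope above. Means per time gave 9 and 395. Conversions in place of labelled reads kept 209 genes and limma on 1 slope per course 528. Only 157 genes had no multimapped read, of which 111 fell and 6 rose, 31 and 11 early and 112 and 2 late, with 1 and 10 in the difference and 5 kept. These smaller counts follow from the fewer genes. For the other alternatives the cause of the change was not tested. Leaving out 1 library at a time gave 657 (without 20 min of course 1) to 1384 genes (without 10 min of course 2) with the early slope above the late one, and 11 (without 0 min of course 1) to 18 (without 10 min of course 2) with it below. DESeq2 1.42.0 found 4405 genes that fell and 345 that rose.

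Course numbers were not taken to pair the libraries, since nothing in the labels says that they mark a shared culture, although 1 culture may have given a whole course. Deviations of same-numbered libraries correlated at -0.35 to 0.48 over 21 pairs of times and 3945 genes, with a median of 0.076 and 9 pairs over 0.1. These mixed values do not settle whether the libraries of a course are paired. With a replicate block, 4361 genes fell and 305 rose over 0 to 45 min, 2201 and 661 early and 4672 and 106 late, and the early slope was below the late one in 19 genes and above it in 1079. Of the values of named genes under the alternatives, 6013 kept direction and side of the threshold or stayed within 1 SE, 63 fell short of the threshold, 70 came to pass it, 73 moved by more than 1 SE and 6 changed sign. Many named genes were picked for extreme slopes or small p-values in these same data. Such genes change little by their choice, so these numbers do not describe the other genes tested. Levels from under 10 labelled reads, as in 25 of the genes that rose at 0 min, limit the precision of their early slopes.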

Other observations

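Of the 309 genes that rose, 113 were members of any of the 22 lists and 81 of the 4 lists on stress, glucose-repressed carbon use, glycogen and trehalose, and hexoses. The other 196 lie outside the lists. A few lists had a lone member that went against the rest. PIR3, a cell wall protein, rose with a slope of 0.64 where 28 of 32 cell wall genes fell, and URA10, a minor isoenzyme of pyrimidine synthesis, rose with 0.26 where 31 of 32 nucleotide genes fell. MRP8, whose place in its list was not checked, rose with 0.21 where 64 of 67 genes listed as mitochondrial ribosomal proteins fell. At the slow end of lists that fell stood SIC1, an inhibitor of cyclin-dependent kinase, at -0.16, and WHI5, a repressor of the start of the cell cycle, at -0.02, which passed in neither direction. Of the amino acid genes BAT2, a branched-chain aminotransferase, at -0.02, and LEU2, at -0.03, also passed in neither direction.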
